A study of Mus musculus with 22 samples.

Results

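Amino acid transporters of the plasma membrane were examined in FE1 cells, a mouse lung epithelial line, after 24 h with Mitsui7, a multiwalled carbon nanotube. The 9 genes were Slc7a1, Slc7a3, Slc7a5, Slc3a2, Slc1a4, Slc1a5, Slc38a1, Slc38a2 and Slc6a9, taken by name, with every array probe whose transcript accession maps to one of these symbols. This gave 14 probes and 9 of the 20018 genes that could be named on the array. Slc38a1 had 3 probes, Slc1a5, Slc6a9 and Slc7a5 had 2 each, and a gene is given here by its brightest probe in the sample channel.

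Control and exposed cells were all of the FE1 line, which arose without a transforming gene from MutaMouse lung and so carries that strain's lacZ transgene for scoring mutations. All cells were grown with fetal bovine serum, antibiotics and murine epidermal growth factor. The groups were Control (0 µg/ml, 5 arrays), the low dose D1 (12.5 µg/ml, 6 arrays), the medium dose D2 (25 µg/ml, 5 arrays) and the high dose D3 (100 µg/ml, 6 arrays). Each array compared Cy5-labelled RNA of the cells with Cy3-labelled Universal Mouse Reference RNA, a pool from mouse cell lines. The methods describe fewer separate exposure experiments than there are arrays in a group and do not say which arrays share one, so the p-values measure the spread between these arrays, which may in part be technical and may be too small.

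Amino acids cross the plasma membrane on carriers with partly overlapping substrates. Some carriers, such as the SNAT and ASCT families, use the sodium gradient to load the cell with small neutral amino acids, and exchangers such as LAT1 then trade these for leucine and other essential amino acids. Several carrier genes are known targets of ATF4, a transcription factor made when amino acids run short or the endoplasmic reticulum is stressed, and intracellular leucine and arginine feed the growth regulator mTORC1.

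The arrays lay on 5 slides. Each group had 2 arrays on slide 1 and 1 on each of slides 2, 3 and 4, and the remaining low-dose and high-dose arrays were on slide 5. Between 23688 and 39139 probes per array were above the level of the negative control spots. Across probes, low-dose replicate 1 resembled the medium-dose and high-dose arrays of other slides (mean correlation 0.32 with each) more than the other low-dose arrays (-0.20), and medium-dose replicate 2 was most like the low-dose arrays (0.20, against -0.05 with its own group). Medium-dose replicates 1, 3 and 5 were also most like the high-dose arrays (0.39, 0.26 and 0.25). Their correlation with their own group was lower but positive (0.32, 0.19 and 0.15). Low-dose replicate 1 and medium-dose replicate 2, negative with their own group, are named below as the 2 arrays that stood against their labels. Values without these 2 arrays are given for the transporters that passed the p threshold and for each named list gene whose call they changed. Of the 8 epithelial markers, 4 or 5 were detected on all arrays of a group and Cdh1 on no array. Of 8 markers of alveolar epithelium, 1 to 3 were detected on all arrays of a group, and Sftpa1 and Nkx2-1 on no array. All 6 fibroblast markers were detected on every array, and their mean log2 ratio ranged from -0.37 to 0.09 on the control arrays and from -1.64 to -1.03 at the high dose. The fall lay in Col1a1, Col1a2, Col3a1, Pdgfra and Pdgfrb, with log2 changes of -1.34 to -1.70 at the high dose. Thy1 did not share it, with changes of 0.10, -0.16 and -0.02 from the low to the high dose. The part of these markers in the transporter results was not tested. Fewer cells of a type and less RNA per cell cannot be told apart in such samples.

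Of the 9 transporters, 2 rose at the low dose (Slc7a1 and Slc6a9), the same 2 at the medium dose, and 3 at the high dose, where Slc3a2 joined them. None fell at any dose. A call required an adjusted p of 0.05 or less in limma's moderated test with slide as a term (Benjamini-Hochberg over all 55681 probes), a change of 1.5-fold or more, and a signal above the negative controls on 4 or more arrays in one of the groups compared. Over all detected genes the share of calls at the low dose was 2.17% upward and 3.01% downward, at the medium dose 4.22% and 4.65%, and at the high dose 5.44% and 6.41%. The fitted changes of all 9 transporters lay above 0 at each dose, with medians of 0.34, 0.45 and 0.51 on the log2 scale, where the medians over all detected genes were -5.21e-05, 0.00143 and 0.00909. The 3 comparisons share the 5 control arrays, so the signs at the 3 doses are not independent.

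**Figure D1:**
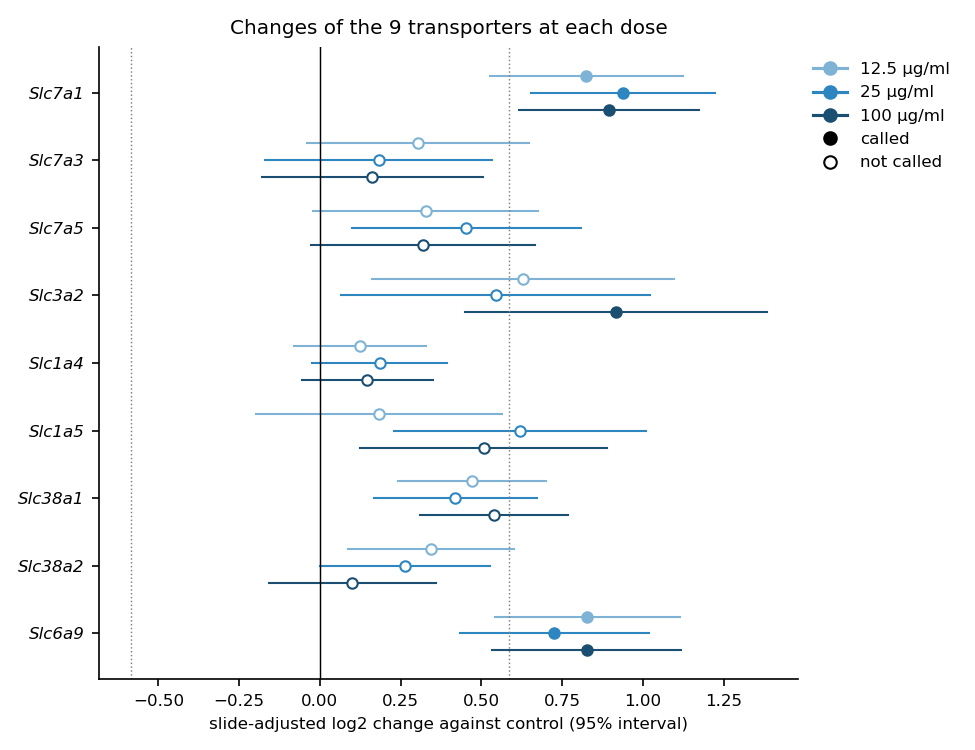
Slide-adjusted log2 change of each transporter (rows) against control at the 3 doses, with 95% intervals as horizontal lines; filled points were called, open points were not, and dotted lines mark 1.5-fold. All points lie right of 0, and the filled points belong to Slc7a1 and Slc6a9 at every dose and to Slc3a2 at 100 µg/ml.

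Promoter sequence was at hand for 5 of the 9 genes (Slc6a9, Slc7a1, Slc1a4, Slc38a2 and Slc3a2), as 8 windows of 300 bases from 250 before to 50 after a start, from RefSeq on GRCm38.p6. The letters TGATGNAA, the core of the element bound by ATF4 with C/EBP proteins, were searched on both strands and were found in 1 of the 8 windows, that of Slc1a4. They were in 3.97% of all 32851 promoters of this length. CACGTG, the E-box bound by factors such as MYC, was in 0 of the 8 and in 7.15% of all. Sequence outside these windows, such as that further into the gene, was not searched. The 100 bases before the start are shown for the 3 genes that rose, and 60 bases around the match for Slc1a4, where capitals mark the reverse-strand match at the start itself. The Slc6a9 sequence is chr4:117835158-117835257 on the plus strand, the first of 3 Slc6a9 starts in the table. The others are on the minus strand, at chr5:148399905-148400004 (Slc7a1, the first start), chr5:148392816-148392915 (Slc7a1, the second), chr19:8713898-8713997 (Slc3a2) and chr11:20332704-20332763 (Slc1a4). No capitals appear in the first 4 because neither set of letters occurs there.
Slc6a9: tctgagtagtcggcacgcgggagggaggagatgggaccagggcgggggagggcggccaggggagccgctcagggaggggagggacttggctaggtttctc
Slc7a1, first start: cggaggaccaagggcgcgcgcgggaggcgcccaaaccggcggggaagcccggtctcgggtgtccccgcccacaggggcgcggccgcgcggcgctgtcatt
Slc7a1, second start: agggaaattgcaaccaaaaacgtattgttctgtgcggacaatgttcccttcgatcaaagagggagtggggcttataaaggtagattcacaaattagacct
Slc3a2: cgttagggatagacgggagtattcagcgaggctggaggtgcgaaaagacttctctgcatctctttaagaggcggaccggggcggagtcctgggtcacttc
Slc1a4: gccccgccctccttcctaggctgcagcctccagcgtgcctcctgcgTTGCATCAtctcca

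These windows differed in base composition. The first Slc7a1 window was 65.0% G and C with 27 CpG sites and the second 51.7% with 7, against medians of 52.7% and 7 over all promoters. The windows of Slc38a2 (73.0%, 41 CpG sites) and Slc1a4 (65.0%, 21 sites) were also rich in CpG, and those of Slc3a2 (56.0%, 15 sites) and Slc6a9 (59.0% to 60.7%, 8 to 14 sites) lay nearer to the median.

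Slc7a1 encodes CAT1, the widely expressed carrier of arginine, lysine and ornithine. Its log2 ratios to the reference were 1.13, 0.85, 0.64, 0.88 and 0.30 on the 5 control arrays. At the low dose they were 2.12, 1.65, 1.75, 1.33 and 0.91, with replicate 3 marked as an outlier spot and left out. At the medium dose they were 2.25, 1.82, 1.57, 1.38 and 1.47. The 5 medium-dose arrays lay above every control array, as did 4 of the 5 measured low-dose arrays, replicate 6 being the exception. At the high dose the 6 arrays ranged from 1.30 to 2.13 with a median of 1.55, also above every control array.

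The fitted change of Slc7a1 was 0.83 ± 0.14 at the low dose (SE; 1.77-fold, limma adjusted p = 0.00181), 0.94 ± 0.14 at the medium dose (1.91-fold, adjusted p = 0.000203) and 0.89 ± 0.13 at the high dose (1.86-fold, adjusted p = 0.000149). Within slides the dosed arrays exceeded the control of the same slide in 3 of 3 slides at the low dose and in 4 of 4 at the others. Without low-dose replicate 1 and medium-dose replicate 2 the Slc7a1 changes were 0.74 (adjusted p = 0.0101), 0.97 (0.000330) and 0.89 (0.000197). Without the slide term, Slc7a1 at the low dose was 0.79 with an adjusted p of 0.0579 and was not called.

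Slc6a9 encodes GLYT1, a sodium- and chloride-dependent carrier that brings glycine into the cell. Its log2 ratios on the 4 measured control arrays were -0.19, -0.27, 0.27 and -0.22, control replicate 3 being marked as an outlier spot. At the medium dose they were 0.95, 0.49, 0.49, 0.43 and 0.57, and at the high dose 0.67, 0.78, 0.95, 0.33 and 0.53, with replicate 3 again left out as an outlier spot. At the low dose the 6 arrays ranged from 0.38 to 1.10 with a median of 0.49. Every dosed array lay above every control array.

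The fitted change of Slc6a9 was 0.83 ± 0.14 at the low dose (SE; 1.78-fold, limma adjusted p = 0.00139), 0.73 ± 0.14 at the medium dose (1.65-fold, 0.00323) and 0.83 ± 0.14 at the high dose (1.77-fold, 0.000618). The other Slc6a9 probe changed by 0.42 at the low dose (adjusted p = 0.256, not called), 0.73 at the medium dose (0.0141) and 0.68 at the high dose (0.0146). The Slc6a9 call was lost without slide 1, which holds 2 arrays of each group, at the low dose (0.73, adjusted p = 0.0661) and the medium dose (0.52, adjusted p = 0.189). Without the 2 arrays that stood against their labels, Slc6a9 was called at all 3 doses (adjusted p = 0.00703, 0.00545 and 0.000932).

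**Figure D2:**
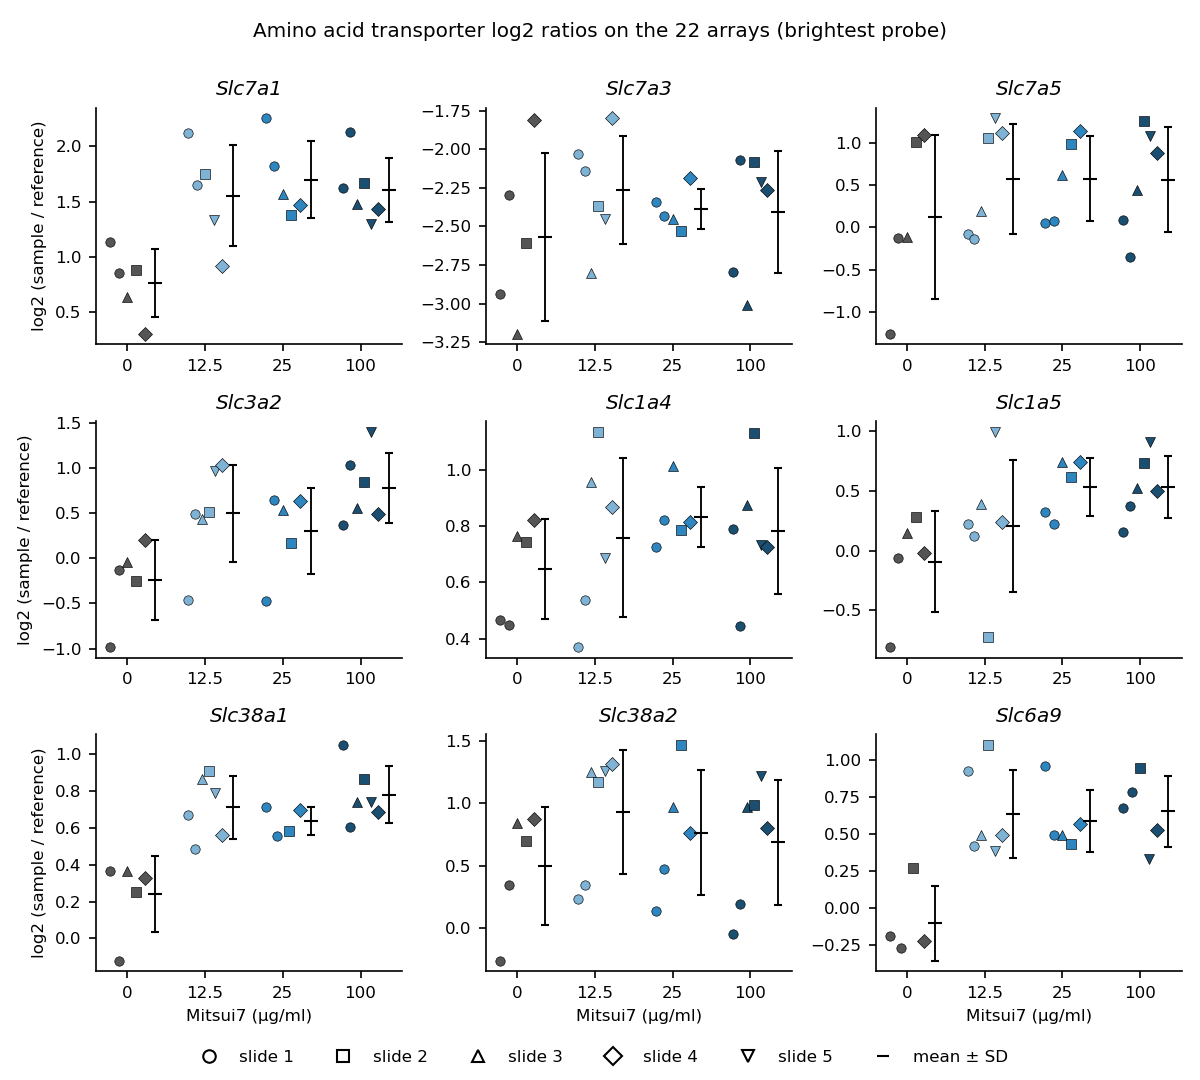
Log2 ratio of sample to reference (vertical axes) on each array for the 9 transporters by Mitsui7 dose (horizontal axes); marker shape gives the slide and the bar beside each group the mean ± SD. For Slc7a1 and Slc6a9 the dosed arrays sit above the controls, with 1 low-dose Slc7a1 array inside the control range, while for Slc7a5 and Slc38a2 the groups overlap and the slides separate.

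Slc3a2 encodes CD98, the heavy chain that carries LAT1 and several other light chains to the cell surface. Its log2 ratios were -0.98, -0.13, -0.04, -0.25 and 0.20 on the control arrays, and at the high dose they ranged from 0.37 to 1.40 with a median of 0.70. All 6 high-dose arrays lay above every control array. At the low dose the ratios ranged from -0.46 to 1.03 with a median of 0.50, and at the medium dose they were -0.47, 0.65, 0.53, 0.17 and 0.64. These 2 groups overlapped with the controls.

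Slc3a2 rose at the high dose by 0.92 ± 0.22 (SE; 1.89-fold, limma adjusted p = 0.0114). At the low and medium doses its changes were 0.63 ± 0.22 (adjusted p = 0.159) and 0.54 ± 0.23 (0.233), which were not called. The high-dose call was lost without slide 2 (0.87, adjusted p = 0.0617). Low-dose Slc3a2 was called when the replicate number replaced slide as the block (0.71, adjusted p = 0.00275) or was nested in slide (0.63, adjusted p = 0.00758), and also without the 2 arrays that stood against their labels (0.77, adjusted p = 0.0455), where the high-dose change was 0.93 (0.00315). On slide 1 the replicate 1 array lay below the replicate 2 array in all 4 groups, at -0.98 against -0.13 among the controls and at 0.37 against 1.03 at the high dose. Within this slide, the 2 high-dose arrays exceeded the control of the same number by 1.36 and 1.16, the low-dose arrays by 0.52 and 0.62, and the medium-dose arrays by 0.52 and 0.78.

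Slc7a5 encodes LAT1, the light chain that exchanges glutamine for leucine and other large neutral amino acids when bound to CD98. It was not called at any dose. Its log2 ratios were -1.26, -0.12, -0.11, 1.01 and 1.10 on the control arrays and ranged from -0.35 to 1.26 with a median of 0.66 at the high dose, so that the groups overlapped widely. The fitted Slc7a5 changes were 0.33 ± 0.17 at the low dose (SE; limma adjusted p = 0.403), 0.45 ± 0.17 at the medium dose (0.160) and 0.32 ± 0.17 at the high dose (0.345), and the 95% intervals reached 0.67, 0.81 and 0.67. The other Slc7a5 probe gave 0.33, 0.32 and 0.16, also without a call.

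Most of the spread of Slc7a5 lay between slides. Slide took up 81.4% of its variance over the arrays and dose group 5.81%. On slide 1, control replicate 1 lay far below control replicate 2, and the dosed arrays numbered 1 exceeded their control by 1.18 to 1.34, while those numbered 2 differed from theirs by -0.02, 0.19 and -0.23. Slc38a2 had a like division, with 79.9% for slide and 7.92% for dose group. For the genes that rose at every dose the order was turned, with 70.2% for dose group and 10.2% for slide in Slc6a9, and 59.0% and 27.3% in Slc7a1. It was also turned in Slc38a1, which was not called at any dose, with 63.7% for dose group and 7.70% for slide. Slide was entered before dose group in all these shares.

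**Figure D3:**
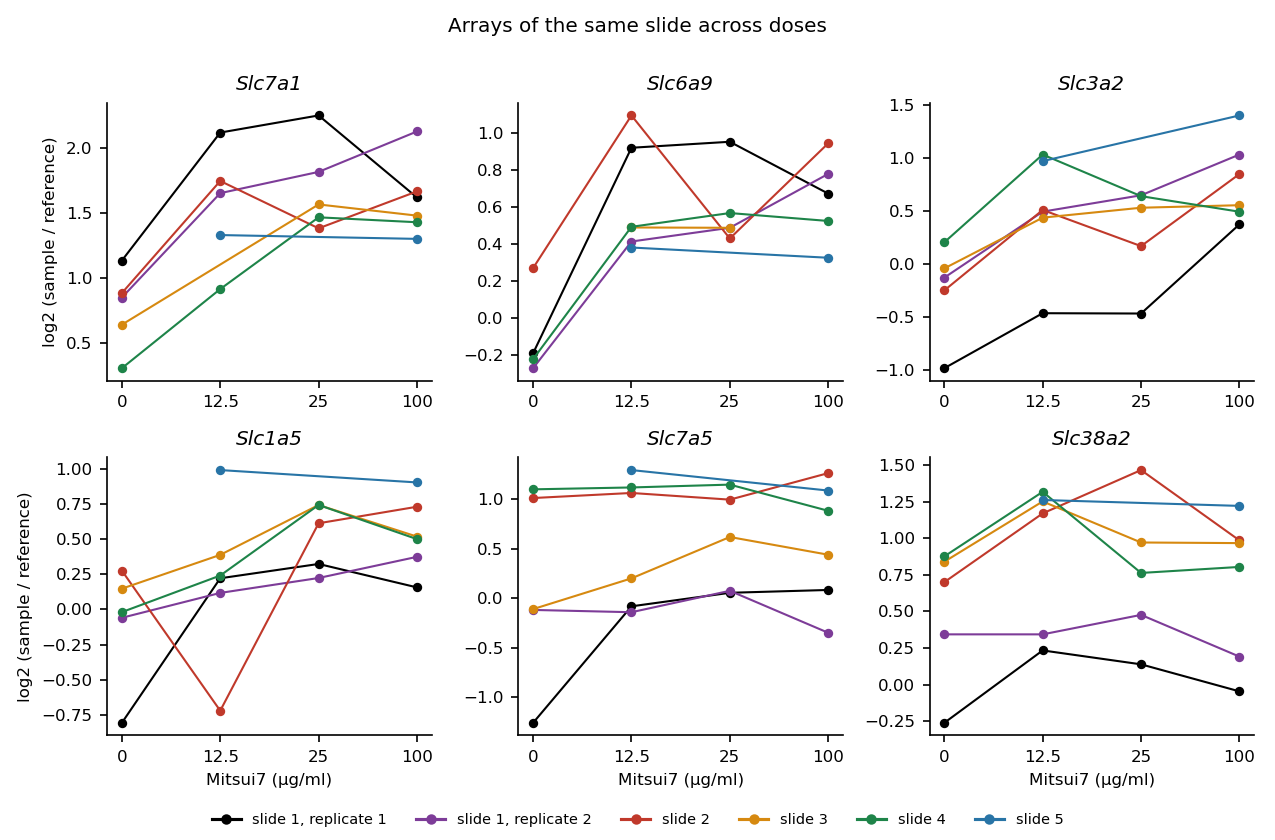
Log2 ratio of sample to reference (vertical axes) by Mitsui7 dose for 6 transporters, with arrays of the same slide joined by a line and the 2 sets of slide 1 drawn apart; a line passes over an array where the spot was left out. Lines for Slc7a1 and Slc6a9 rise from control on every slide with a measured control spot. Those for Slc7a5 and Slc38a2 lie apart by slide, with slopes that differ between lines. For Slc7a5 the slide 1 line of replicate 1 rises by 1.18 to 1.34, and that of replicate 2 differs from control by -0.23 to 0.19.

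Slc1a5 encodes ASCT2, the main glutamine exchanger of many growing cells, and Slc1a4 encodes ASCT1, which carries alanine, serine, cysteine and threonine. Slc1a5 was not called at any dose. Its log2 ratios were -0.81, -0.06, 0.15, 0.28 and -0.02 on the control arrays, 0.32, 0.22, 0.74, 0.61 and 0.74 at the medium dose, and from 0.16 to 0.90 with a median of 0.51 at the high dose. At the low dose they ranged from -0.72 to 0.99. Of the medium-dose arrays 4 of 5 lay above every control array, and of the high-dose arrays 5 of 6, whereas the low-dose arrays spanned the control range.

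The fitted changes of Slc1a5 were 0.18 ± 0.18 (SE; limma adjusted p = 0.749), 0.62 ± 0.19 (0.0588) and 0.51 ± 0.18 (0.109) from the low to the high dose. This was close to the threshold at the medium dose. Slc1a5 passed it there without control replicate 4 (0.75, adjusted p = 0.0299), without low-dose replicate 4 (0.62, 0.00257), which had the low value of -0.72, without slide 2, which holds both (0.69, 0.00598), with the replicate block within slide (0.0417), in a fit of the 2 groups alone (0.0391) and with only detected probes (0.0427). At the high dose it passed without control replicate 4 (0.63, 0.0496) and when the replicate block replaced slide (0.62, 0.0403). Without the 2 arrays that stood against their labels, medium-dose Slc1a5 was not called (0.65, 0.0651). The other Slc1a5 probe gave 0.33, 0.29 and 0.37 and was not called.

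Slc1a4 showed smaller differences. Its fitted changes were 0.12 ± 0.10, 0.18 ± 0.10 and 0.15 ± 0.10 (SE; limma adjusted p = 0.656, 0.417 and 0.517), and its 95% intervals reached at most 0.39. With median centring in place of loess the low-dose change of Slc1a4 was -0.013.

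Slc38a1 and Slc38a2 encode SNAT1 and SNAT2, sodium-coupled carriers of glutamine, alanine and other small neutral amino acids, and SNAT2 is the classical carrier of amino acid starvation. The brightest Slc38a1 probe had log2 ratios of 0.37, -0.12, 0.37, 0.25 and 0.33 on the control arrays and of 0.71, 0.56, 0.59 and 0.70 on the 4 measured medium-dose arrays. It ranged from 0.48 to 0.91 with a median of 0.73 at the low dose and from 0.61 to 1.05 with a median of 0.74 at the high dose. Every dosed array lay above every control array.

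The fitted Slc38a1 changes were 0.47 ± 0.11 (SE; limma adjusted p = 0.0176), 0.42 ± 0.12 (0.0476) and 0.54 ± 0.11 (0.00272), or 1.39-, 1.34- and 1.45-fold. They passed the p threshold at all doses and stayed under 1.5-fold, so the gene was not called. At the high dose the change passed 1.5-fold without control replicate 1 (0.59, adjusted p = 0.00249) and without slide 4 (0.59, adjusted p = 0.00789). Without the 2 arrays that stood against their labels, Slc38a1 changed by 0.47 (adjusted p = 0.0478), 0.44 (0.0772, no longer passing) and 0.54 (0.00497). The other 2 Slc38a1 probes did not pass the p threshold at any dose, with changes of 0.36, 0.81 and 0.35 for the probe next in brightness and of 0.20, 0.29 and 0.18 for the dimmest.

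Slc38a2 was not called. Its control ratios ranged from -0.26 to 0.88 and its high-dose ratios from -0.05 to 1.22, and the groups overlapped. Its fitted changes were 0.34 ± 0.12 at the low dose (SE; limma adjusted p = 0.164), 0.26 ± 0.13 at the medium dose (0.327) and 0.10 ± 0.12 at the high dose (0.802).

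Slc7a3 encodes CAT3, a cationic amino acid carrier best known from neurons. Its signal was near background, being detected on 3 of 5 control arrays and on all 6 at the high dose, and marked well above background on 2 and 3 of these. The log2 ratios ranged from -3.19 to -1.81 on the control arrays and from -3.01 to -2.07 at the high dose. Its changes of 0.30, 0.18 and 0.16 were not called (limma adjusted p = 0.448, 0.727 and 0.740), and at such a signal a change of this size could not be told from the spread.

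No transporter was called between doses, where limma's smallest adjusted p was 0.603 for the high against the low dose, 0.869 for the medium against the low and 0.999 for the high against the medium. Of all detected genes, 0.429% were called between the high and low doses, 0% between medium and low and 0% between high and medium. At limma's unadjusted p under 0.05 there were 1, 1 and 0 transporters. Over the array, 3738, 2303 and 1647 detected probes passed this. The 55681 probes tested include undetected ones, so these counts are not shares of the detected probes. The transporters were Slc38a2, lower at the high than at the low dose by a log2 change of -0.24, and Slc1a5, higher at the medium than at the low dose by 0.44. This Slc1a5 difference ranged from 0.20 to 0.69 over the alternatives, and the other Slc1a5 probe gave -0.04. For Slc7a1 the 95% interval of the high minus low difference was -0.21 to 0.35, and for Slc6a9 it was -0.26 to 0.26. Differences within these intervals between 12.5 and 100 µg/ml are therefore not excluded. For Slc3a2 the high minus low difference was 0.29, with an interval from -0.15 to 0.72.

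The genes whose course over the arrays was nearest to a transporter were found by the root mean square difference between slide-adjusted log2 ratios, each relative to its control mean, among 9885 genes detected on all 22 arrays. For Slc7a5 these were Fbxo32 (0.189), Dgkh (0.189) and Gmps (0.205), where Slc7a5 itself lay 0.400 from a flat line. For Slc3a2, which had the largest high-dose change among the 9 genes, they were Tymp (0.182), Uap1l1 (0.187, over 20 arrays) and Ajuba (0.189), against 0.715 for Slc3a2 from a flat line. Among the transporters themselves Slc7a1 and Slc6a9 lay nearest to each other (0.162).

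Other genes of amino acid handling were read from lists written from general knowledge. Of 44 further amino acid transporter genes, 43 were on the array, and 20, 22 and 21 of these were detected and could be called at the 3 doses. From the low to the high dose, 1, 1 and 2 were called higher and 1, 1 and 3 lower, and the low-dose total of 2 became 4 without control replicate 5. The median change of those detected was -0.02, -0.06 and -0.09, near that of all genes. At the high dose Slc38a7, a lysosomal carrier of glutamine and asparagine, rose by 1.17 ± 0.27 (SE; limma adjusted p = 0.00641). Slc7a11, the cystine-glutamate exchanger that also binds CD98, rose at all 3 doses by 0.90, 0.85 and 0.67 (adjusted p = 0.000807, 0.00106 and 0.00423), and its high-dose change fell under 1.5-fold without control replicate 2 (0.55). Slc1a3, the glutamate transporter GLAST, fell by 1.41, 1.41 and 1.84 (adjusted p at most 7.33e-06), and with the scanner's own log ratios, which subtract background, its changes were -2.57, -2.60 and -3.97. Slc7a2, another cationic carrier (CAT2), fell at the high dose by 0.83 (adjusted p = 0.00201), where its low-dose change was 0.10. Slc7a4 fell at the high dose by 0.66 (adjusted p = 0.00544), and by 0.57 without control replicate 1, which is under 1.5-fold. Slc38a7 was also called at the low dose (0.78, adjusted p = 0.00143) and the medium dose (0.72, 0.00210) with the replicate block within slide, and at the low dose without the 2 arrays that stood against their labels (0.93, 0.0484).

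Among 21 genes of amino acid synthesis, 20 were on the array, 1, 4 and 4 were called higher at the 3 doses and none lower, with median changes of 0.18, 0.33 and 0.29 (0, 1 and 0 were lower at limma's unadjusted p under 0.05). Asns, asparagine synthetase, rose by 0.78 ± 0.18, 1.01 ± 0.19 and 1.09 ± 0.18 (SE; limma adjusted p = 0.0179, 0.00180 and 0.000437), and its low-dose call was lost without control replicate 2, control replicate 5 or low-dose replicate 1 (adjusted p = 0.0569, 0.0645 and 0.0535). The low-dose count rose to 3 without control replicate 5, where Cth (0.89, adjusted p = 0.0105) and Gpt2 (0.70, 0.0306) were among those called, and to 2 without control replicate 4 or low-dose replicate 4. It was 0 without control replicate 2 or low-dose replicate 1. At the high dose Cth, which makes cysteine from cystathionine, rose by 1.03, Got1, the cytosolic aspartate aminotransferase, by 0.81, and Gpt2, the mitochondrial alanine aminotransferase, by 0.63 (adjusted p = 0.00287, 0.000116 and 0.0230). The Gpt2 call at this dose was lost without control replicate 1, 2 or 3 or high-dose replicate 2 (adjusted p = 0.0787, 0.0671, 0.0612 and 0.0551).

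Of 20 cytosolic aminoacyl-tRNA synthetases, which charge tRNAs with amino acids, 3, 5 and 7 were called higher and none lower, with median changes of 0.29, 0.44 and 0.44 (at limma's unadjusted p under 0.05, 0 were lower at each dose). The high-dose changes were 0.98 for Sars (seryl), 0.90 for Tars (threonyl), 0.78 for Rars (arginyl), 0.77 for Lars (leucyl) and 0.76 for Aars (alanyl), with limma adjusted p-values of 4.33e-05, 1.88e-06, 0.000103, 0.0134 and 1.92e-05. The Lars call was lost without control replicate 2 (adjusted p = 0.0521) or 3 (0.0581). Without low-dose replicate 1 and medium-dose replicate 2, Aars was also called at the low dose (0.62, adjusted p = 0.00115) and Lars at the medium dose (0.78, 0.0117). The low-dose count of synthetases was 5 without control replicate 5, the medium-dose count was 3 without control replicate 2, control replicate 5 or medium-dose replicate 5, and the high-dose count was 4 without control replicate 2. With median centring the counts were 0, 1 and 1.

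Of 20 regulators and targets of ATF4, 8, 10 and 11 were called higher and 0, 0 and 1 lower (2, 2 and 2 at limma's unadjusted p under 0.05), with median changes of 0.55, 0.58 and 0.64. At the high dose the stress factor Atf3 rose by 3.16 ± 0.16, Chac1, which degrades glutathione, by 2.37 ± 0.18, the pseudokinase Trib3 by 2.09 ± 0.22, Ddit3, which encodes CHOP, by 1.90 ± 0.12 and Ppp1r15a, a phosphatase subunit acting on eIF2α, by 1.87 ± 0.15 (SE; largest limma adjusted p = 2.68e-06). Atf4 itself changed by 0.30 at the low dose (adjusted p = 0.416) and rose by 0.78 (0.00759) and 0.79 (0.00238) at the medium and high doses. The other Atf4 probe gave 0.07, 0.32 and 0.18 and was not called (limma adjusted p = 0.936, 0.557 and 0.794). Of 24 genes of mTORC1 and amino acid sensing, 1, 1 and 2 were called higher and 2, 2 and 2 lower. Here Myc, a growth regulator known to drive several transporter genes, rose 1.92-, 2.82- and 2.74-fold (adjusted p at most 0.00100). The sestrins Sesn3 and Sesn1 fell at the high dose by 1.60 and 1.01 (adjusted p = 5.58e-07 and 9.78e-08). Sesn2, counted in the ATF4 list, went the other way. Its mean log2 ratio was 0.10 on the control arrays and 1.04, 1.22 and 1.46 at the 3 doses. Flcn, folliculin, rose at the high dose by 0.88 (adjusted p = 0.0235), a call lost without control replicate 2, 3 or 5 or high-dose replicate 1, 4 or 6 (adjusted p = 0.0572 to 0.0986).

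**Figure D4:**
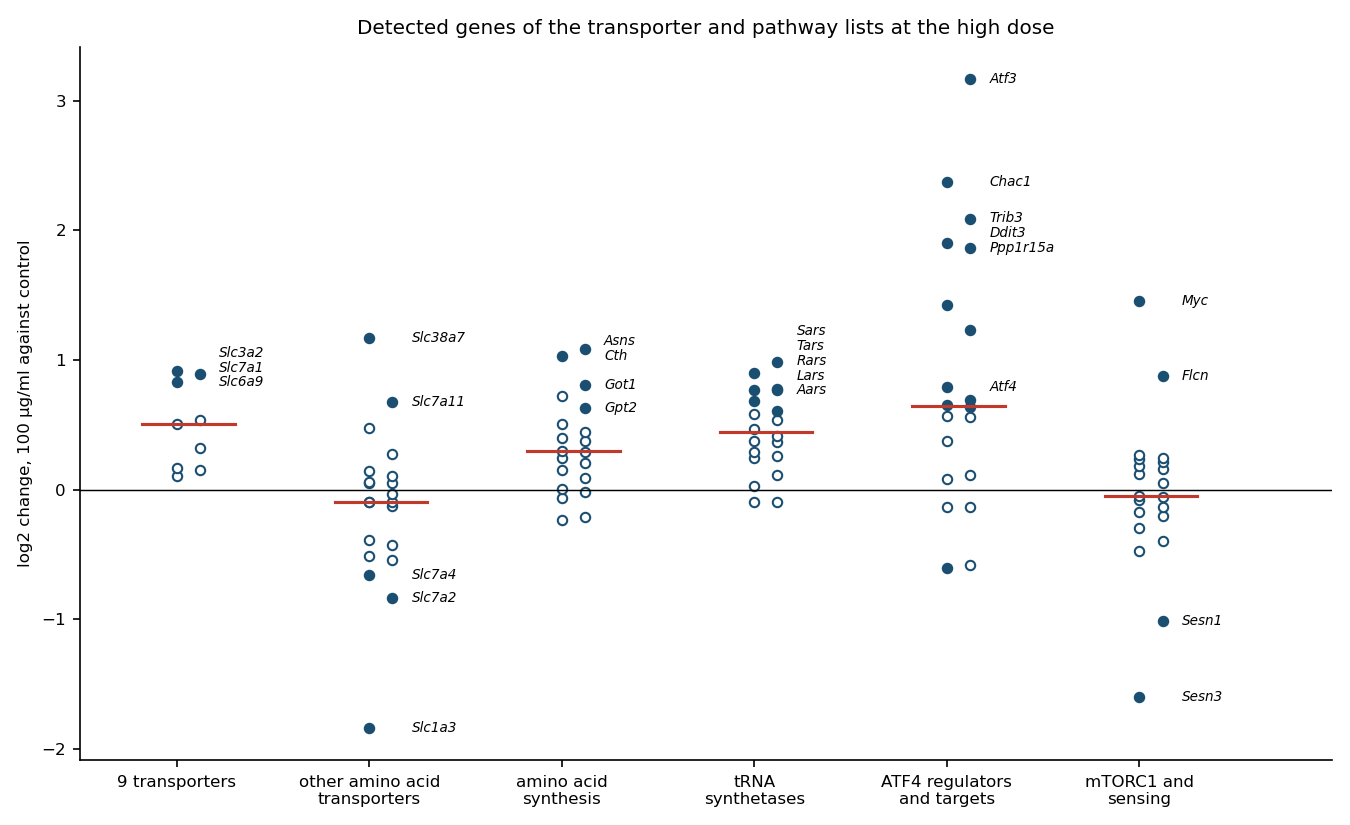
Log2 change at 100 µg/ml against control for the detected genes of each list (columns); filled points were called, open points were not, and the red line is the list median. The 9 transporters have a median of 0.51, between that of the ATF4 list (0.64) and that of the tRNA synthetases (0.44), and the other amino acid transporters have a median of -0.09.

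The calls of transporters changed with median centring. With normexp background correction, the scanner's log ratios or the series matrix values they stayed at 2, 2 and 3. With median centring in place of loess, 0, 1 and 1 of the 9 transporters were called at the 3 doses, and the calls over all detected genes fell from 706 to 296, from 1187 to 422 and from 1658 to 859. The changes of Slc7a1 were then 0.64, 1.06 and 0.85 (limma adjusted p = 0.504, 0.110 and 0.176), those of Slc6a9 were 0.72, 0.88 and 0.80 (0.406, 0.285 and 0.269), and the gene called was Slc3a2. This scaling shifted the low-dose median of all detected genes to -0.11 and moved the share of calls that were higher from 41.9% to 16.6% at the low dose, from 47.6% to 37.0% at the medium dose and from 45.9% to 30.8% at the high dose. All 9 transporters lay above the median of all detected genes at every dose under each of the 5 scalings tried, Slc1a4 at the low dose being below 0 with median centring.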

How the data were processed

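RNA of FE1 cells was measured on 22 two-colour Agilent arrays of 62976 spots, with the sample in Cy5 and the reference in Cy3 and no dye swap. The deposited scanner files hold the median intensity of each spot and of its local background per channel, extracted by the authors with Feature Extraction 10.7.3.1 per the file headers, and a log10 ratio made by that software. The authors' series matrix holds deposited log2 ratios, whose normalization is not stated. Its columns correlated with the loess values of their arrays at a median of 0.985 (lowest 0.840).

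Control spots were left out (3671 per array), outlier-marked spots were set to missing, log2 ratios of the median signals were loess-normalised without background subtraction, and spots of a probe were combined by their median. A probe was detected where its Cy5 signal exceeded the 5% trimmed mean of the 308 negative control spots by 3 trimmed SDs. Accessions were matched to symbols through a RefSeq table of GRCm38.p6, which named 26413 of the 55681 probes. The file headers place the array grid on mm9, so no probe coordinates are given. Dose group and slide, the terms of the study's model, were fitted to all 22 arrays with limma 3.58.1 in R 4.3.3, tested on simulated data, with a prior of 5.51 degrees of freedom. The number of arrays limits the precision. Slide and scan day coincide one to one and cannot be told apart.

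Groups and numbers came from the sample titles. Same-numbered arrays deviated together from their group means in all 31 pairs (r from 0.167 to 0.867 over 16349 probes), and 24 pairs were the best match by number. Slide was not removed here and most pairs share a slide, so number and slide cannot be told apart in them. Within slide 1, which holds 2 arrays of each group, same-numbered arrays also deviated together (6 pairs, r from 0.417 to 0.827). The members and gene lists were chosen with earlier results of these data known. Named beside the members were, per list, the 5 called genes with the largest high-dose change, Atf4, Ddit3, Asns, Slc7a11 and Myc, and the 3 genes nearest to Slc7a5 and Slc3a2. Sesn2 was added beside Sesn1 and Sesn3 by its group means alone, outside the checks of the named list genes.
Alternatives covered scaling, background correction, slide and replicate terms, filters, the fold threshold (none and 2-fold), and leaving out arrays or slides.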

Additional observations from a re-analysis of the deposited data

Results flagged for a closer look

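In 36 sets of arrays (9 transporters in 4 groups), 3 had an array set apart from the others of its group by a gap that was large against the group's range. Chance alone gives about 1 in 20 such sets. Control replicate 2 had a log2 ratio of -0.12 for Slc38a1, where the other 4 controls lay between 0.25 and 0.37. Control replicate 4 had 0.27 for Slc6a9, where the other 3 measured controls lay between -0.27 and -0.19. Medium-dose replicate 1 had 0.95 for Slc6a9, where the other 4 lay between 0.43 and 0.57.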

How the results depend on the processing

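Of 42 alternatives, 22 left out 1 array, which gave 2 transporters called at the low dose each time, 2 to 3 at the medium dose, 3 to 4 at the high dose and 0 between doses throughout. The count moved by over 1.5 times with median centring (0, 1 and 1 at the 3 doses), with a 2-fold threshold (0, 0 and 0), without the slide term (1 at the low dose) and without slide 1 (1 at the low dose, 0 at the medium dose). Without slide 1 only 3 control and 3 medium-dose arrays remain, fewer than the 4 that detection requires, so that no gene could be called. Of the 27 changes of a transporter at a dose, 2 changed sign under an alternative: Slc1a4 at the low dose with median centring (-0.013) and Slc1a5 at the low dose without slide 1 (-0.078). Slc7a2 at the low dose was -0.023 without low-dose replicate 3 and up to 0.26 when other arrays were left out.

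A replicate block that replaced slide or was nested in it gave 3 called at the low dose, 2 or 3 at the medium dose and 4 or 3 at the high dose. The nested form was chosen after seeing the data. It changed the calls of Slc3a2 and Slc1a5 given in the report and no other transporter call. Among the named list genes both forms added Lars (0.63) at the medium dose and Slc38a7 at the low and medium doses. The block in place of slide also added Cth (0.77) and Gpt2 (0.60) at the low dose, where 3 synthesis genes were called in place of 1, and the nested form left that count at 1.

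Counts of the lists ranged, over all alternatives, from 7 to 15 for the ATF4 list at the high dose, from 0 to 14 for the tRNA synthetases, from 0 to 6 for synthesis, from 3 to 5 for mTORC1 and from 2 to 8 for the other transporters. The lowest counts of the first 3 came with median centring or the 2-fold threshold. The cause of these shifts was not tested.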
